A study of Mus musculus with 8 samples.

Results

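The mitotic module described here comprises 46 genes that carry a cell from the end of G2 through the division of its chromosomes and cytoplasm: cyclins and CDKs, mitotic kinases, spindle checkpoint proteins, kinetochore proteins, kinesins, spindle proteins, cytokinesis proteins and the machinery that separates sister chromatids. Its members are a list of gene names, drawn up with earlier results of these data known, and all 46 were found among the 54532 genes of the count files. They were measured by RNA sequencing in 4T1 cells, a mouse mammary cancer line that is used as a model of metastatic triple-negative breast cancer. The cells carried either a scramble control or an shRNA against MCT-1 (shMCT-1), and each of these 2 backgrounds received either control IgG or an antibody against mouse IL-6R at 100 ng/ml for 48 h. This gave 4 groups, named here by line and treatment (such as shMCT-1 + IgG), and each group has 2 libraries. All groups shared stable transfection and culture with 6 µg/ml puromycin. Whether a line is 1 clone or a pool of transfected cells is not given in the sources used here, so that differences between the 2 lines other than the silencing cannot be told apart from it.

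The members act in a fixed order. Cyclin B bound to Cdk1 starts mitosis, and the Aurora and Polo kinases build the spindle, on which kinesins move microtubules and chromosomes. The spindle checkpoint, which is assembled at kinetochores that no microtubule has reached, holds back Cdc20 and the anaphase-promoting complex. Once it is silenced, securin and cyclin B are destroyed, separase cuts cohesin, and the cell is pinched apart. Most of these genes are transcribed mainly in G2 and M, under the control of the DREAM, B-MYB and FOXM1 complexes. These bind promoters through a short element, the cell cycle homology region, often together with CCAAT boxes bound by NF-Y. High levels of such genes mark proliferating cells in breast tumors.

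Library totals lay between 19839255 and 33063535 counts, and all 46 members passed the minimum, a level above 1 CPM (counts scaled to the library total) in 2 or more libraries, as did 12704 genes in all. The lowest count of any member in any library was 495 (Cdc25c). Mcts1, the gene for MCT-1 (chrX:38600578-38613426, GRCm38), measured 15.4 and 11.8 CPM in scramble + IgG, 12.8 and 13.5 in scramble + anti-IL-6R, 6.32 and 6.18 in shMCT-1 + IgG, and 6.70 and 4.92 in shMCT-1 + anti-IL-6R. Its levels in shMCT-1 lay below every scramble level (log2 fold change -1.10 ± 0.116, adjusted p = 1.13e-05). The replicates of a group were not the same library deposited again, since their counts differed by more than counting error. Of the epithelial markers chosen to check the labelled cell type, 7 of 8 passed the minimum, and their summed level was 2391 to 2545 CPM in scramble and 3238 to 3508 CPM in shMCT-1, led by Krt8. The lists for other cell types summed to at most 17.3 CPM for fibroblasts, 7.81 CPM for leukocytes, with Adgre1 and Cd3e at 0, and 1.96 CPM for endothelium. Leukocyte markers were at 3.14 to 3.94 CPM in scramble and 6.19 to 7.81 CPM in shMCT-1, nearly all from Cd68, and endothelial markers at 0.128 to 0.332 CPM and 0.756 to 1.96 CPM. The part of these shifts in the results was not tested.

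The promoters of the module share short motifs that its choice did not use. RefSeq promoter sequences (GRCm38.p6, from 250 bases before to 50 bases after the start of a gene) were at hand for 40 of the 46 members. The core of the cell cycle homology region, TTTGAA, was found on either strand in 31 of the 40 (77.5%), against 20.2% of all 27025 genes with an entry. With its variant TTCGAA it was found in 33 of the 40 (82.5% against 21.7%). CCAAT, the NF-Y box, was present in 29 of the 40 (72.5% against 41.1%), and both elements together in 27 (67.5% against 8.61%). The E2F-like letters GCGGGA were found in 19 of the 40 (47.5% against 22.1%), and the longer GCGCGAA in 2 (5.0% against 1.81%). No motif searched contains another, and TTTGAA and TTCGAA are variants of 1 element.

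The first 4 promoters printed here belong to the members with the largest changes in shMCT-1 that passed the test under both treatments and have an entry with at least 1 of the motifs searched, and all 4 genes fell. They were thus selected for holding a motif, and Nusap1, whose fall was as large as that of Knl1, was passed over because its entry holds none. The fifth, of Ccnb2, was added after its values were seen, since Ccnb2 rose and its promoter holds the same elements. Capitals mark TTTGAA and CCAAT on either strand, the latter written as TTCAAA and ATTGG where they lie on the other strand.
Mki67, chr7:135716330-135716629, minus strand: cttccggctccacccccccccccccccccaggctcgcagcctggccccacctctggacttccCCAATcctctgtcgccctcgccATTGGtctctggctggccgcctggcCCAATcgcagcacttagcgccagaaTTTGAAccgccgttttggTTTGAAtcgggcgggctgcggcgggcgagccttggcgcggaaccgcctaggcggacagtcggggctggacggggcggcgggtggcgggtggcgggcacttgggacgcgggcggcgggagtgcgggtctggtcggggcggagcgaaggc
Knl1, chr2:119046869-119047168, plus strand: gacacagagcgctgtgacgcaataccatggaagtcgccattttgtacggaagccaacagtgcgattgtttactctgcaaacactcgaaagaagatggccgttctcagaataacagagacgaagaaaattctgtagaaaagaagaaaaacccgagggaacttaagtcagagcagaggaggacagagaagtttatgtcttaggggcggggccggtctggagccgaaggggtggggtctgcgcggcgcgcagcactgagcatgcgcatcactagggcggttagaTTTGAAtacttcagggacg
Anln, chr9:22389157-22389456, minus strand: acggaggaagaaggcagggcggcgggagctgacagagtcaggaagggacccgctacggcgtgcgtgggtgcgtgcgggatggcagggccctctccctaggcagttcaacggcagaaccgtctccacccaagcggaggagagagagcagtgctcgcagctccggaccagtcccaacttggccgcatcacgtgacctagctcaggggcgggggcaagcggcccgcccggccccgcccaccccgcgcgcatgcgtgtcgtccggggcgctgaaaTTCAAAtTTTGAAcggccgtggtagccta
Aspm, chr1:139454523-139454822, plus strand: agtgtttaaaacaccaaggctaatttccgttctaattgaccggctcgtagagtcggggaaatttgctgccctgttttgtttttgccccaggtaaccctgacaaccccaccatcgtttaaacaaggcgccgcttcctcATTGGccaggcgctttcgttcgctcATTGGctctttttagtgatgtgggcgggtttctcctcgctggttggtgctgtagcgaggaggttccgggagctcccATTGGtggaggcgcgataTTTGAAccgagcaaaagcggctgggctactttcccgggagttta
Ccnb2, chr9:70421505-70421804, minus strand: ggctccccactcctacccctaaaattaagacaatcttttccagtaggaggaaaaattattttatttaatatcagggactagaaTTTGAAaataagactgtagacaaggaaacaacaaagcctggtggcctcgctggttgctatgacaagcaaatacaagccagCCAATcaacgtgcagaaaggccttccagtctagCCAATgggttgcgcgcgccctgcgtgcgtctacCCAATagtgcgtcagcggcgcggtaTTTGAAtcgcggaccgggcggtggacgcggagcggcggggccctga

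In the promoter of Aspm, TTTGAA began 7 bases after the start and the nearest CCAAT box 12 bases before it, and in that of Ccnb2 they began 5 bases after and 21 bases before it. The promoters of Knl1 and Anln held TTTGAA at bases 32 and 29 after the start, that of Anln also its reverse at base 22, and neither held CCAAT. In Mki67 both elements lay upstream, with TTTGAA 116 and 98 bases before the start. Over all members, 28 of the 40 (70%) had TTTGAA within 50 bases of the start, against 4.94% of the 32851 promoter entries. The element or its variant was present in 21 of 24 members that were lower in shMCT-1. It was present in 5 of 8 that were higher and 7 of 8 that were not called. A difference between these classes was not tested. A match is a description of the letters, and binding was not measured.

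**Figure D1:**
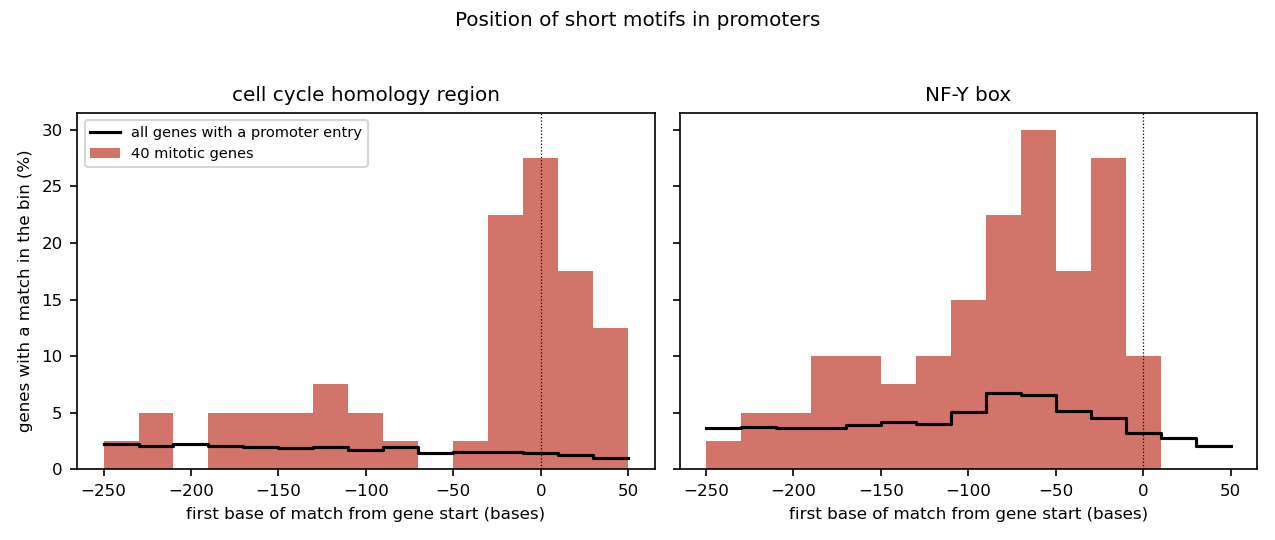
Share of genes with a match of the cell cycle homology region (left) or the NF-Y box (right) in bins of 20 bases from 250 bases before to 50 bases after the gene start, on either strand. Bars are the 40 mitotic genes with a promoter entry and the line is all genes with an entry, and the bars for the homology region are highest around the start site, while those for the NF-Y box are highest between about 90 bases before it and the start.

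The comparison of shMCT-1 with scramble asks how these genes differ between the silenced line and its control, whatever else differs between the 2 lines. More members were lower than higher in shMCT-1, but the module did not move as 1 block. Across both treatments 25 of the 46 members were lower, 8 were higher and 13 were not called (edgeR's quasi-likelihood test, Benjamini-Hochberg adjusted p under 0.05 over all 12704 genes). The changes between the 2 lines were wide: 34% of all genes tested were lower and 35% higher, 69% in all, so that a call of a member is in itself common. The median log2 fold change was -0.18 over the members and 0.01 over all genes. Within IgG, 21 members were lower and 6 higher (26.2% and 28.3% of all genes, 54.4% together), with a median of -0.24. Within anti-IL-6R, 17 were lower and 6 higher (27.3% and 26.9% of all genes, 54.3% together), with a median of -0.18. These last 2 comparisons contrast different libraries, but their tests use 1 estimate of the spread from all 8 libraries. Their calls are therefore not independent. The comparison across both treatments is made of the libraries of both.

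Called under both treatments were 17 members that fell, namely Anln, Aspm, Bub1, Ccnb1, Cdc25b, Cenpe, Cenpf, Hmmr, Kif11, Kif15, Kif20b, Knl1, Mki67, Nusap1, Prc1, Top2a and Tpx2, and 5 that rose, namely Birc5, Bub3, Ccnb2, Nuf2 and Pttg1. Of all genes tested 54.4% were called within IgG and 54.3% within anti-IL-6R. The share of all genes called under both was not counted, so the counts of members called under both are a description. Cdk1, Ect2, Kif23, Kif4 and Ube2c passed within IgG alone and Plk1 within anti-IL-6R alone. A difference between the treatments was not called for any of them. In plain CPM, all 4 shMCT-1 libraries lay below all 4 scramble libraries for 28 members and above them for 6, against 34.2% and 29.9% of all genes tested. With CPM scaled by TMM, edgeR's correction of library sizes, these counts were 26 and 8 (31.4% and 33% of all genes), as Ccna2 and Kif18b then overlapped and Nuf2 and Plk1 no longer did. Together the members took 0.844% to 0.911% of all counts in scramble and 0.631% to 0.690% in shMCT-1. The share of counts from mitochondrial genes moved with the line as well, from 1.97% to 2.52% in scramble to 0.840% to 1.53% in shMCT-1 with no overlap, and its part in the result was not tested. In a culture of mixed cell cycle stages, fewer cells in G2 and M and less RNA of these genes per cell cannot be told apart.

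Of the 33 calls across both treatments, 28 held whichever single library was left out. Cdc20 lost its call without any 1 of 6 libraries, Kif18b, Kif22 and Ttk without any 1 of 5, and Plk1 without shMCT-1 + IgG replicate 1. Within IgG 17 of 27 calls held whichever library was left out, and within anti-IL-6R 12 of 23. Without shMCT-1 + IgG replicate 1 the members higher within IgG fell from 6 to 3, and within anti-IL-6R the 17 lower and 6 higher became 11 and 1 without scramble + anti-IL-6R replicate 2. Without shMCT-1 + anti-IL-6R replicate 1 the members lower within anti-IL-6R were 11, and without scramble + anti-IL-6R replicate 1 the higher were 2. In each of the runs just named, calls over all genes in the same comparison were fewer as well, in both directions, so the loss was not confined to the members. The values given for each gene are CPM in each library, followed by the change in shMCT-1 relative to scramble across both treatments as a log2 fold change with its standard error (4 libraries against 4) and its adjusted p.

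**Figure D2:**
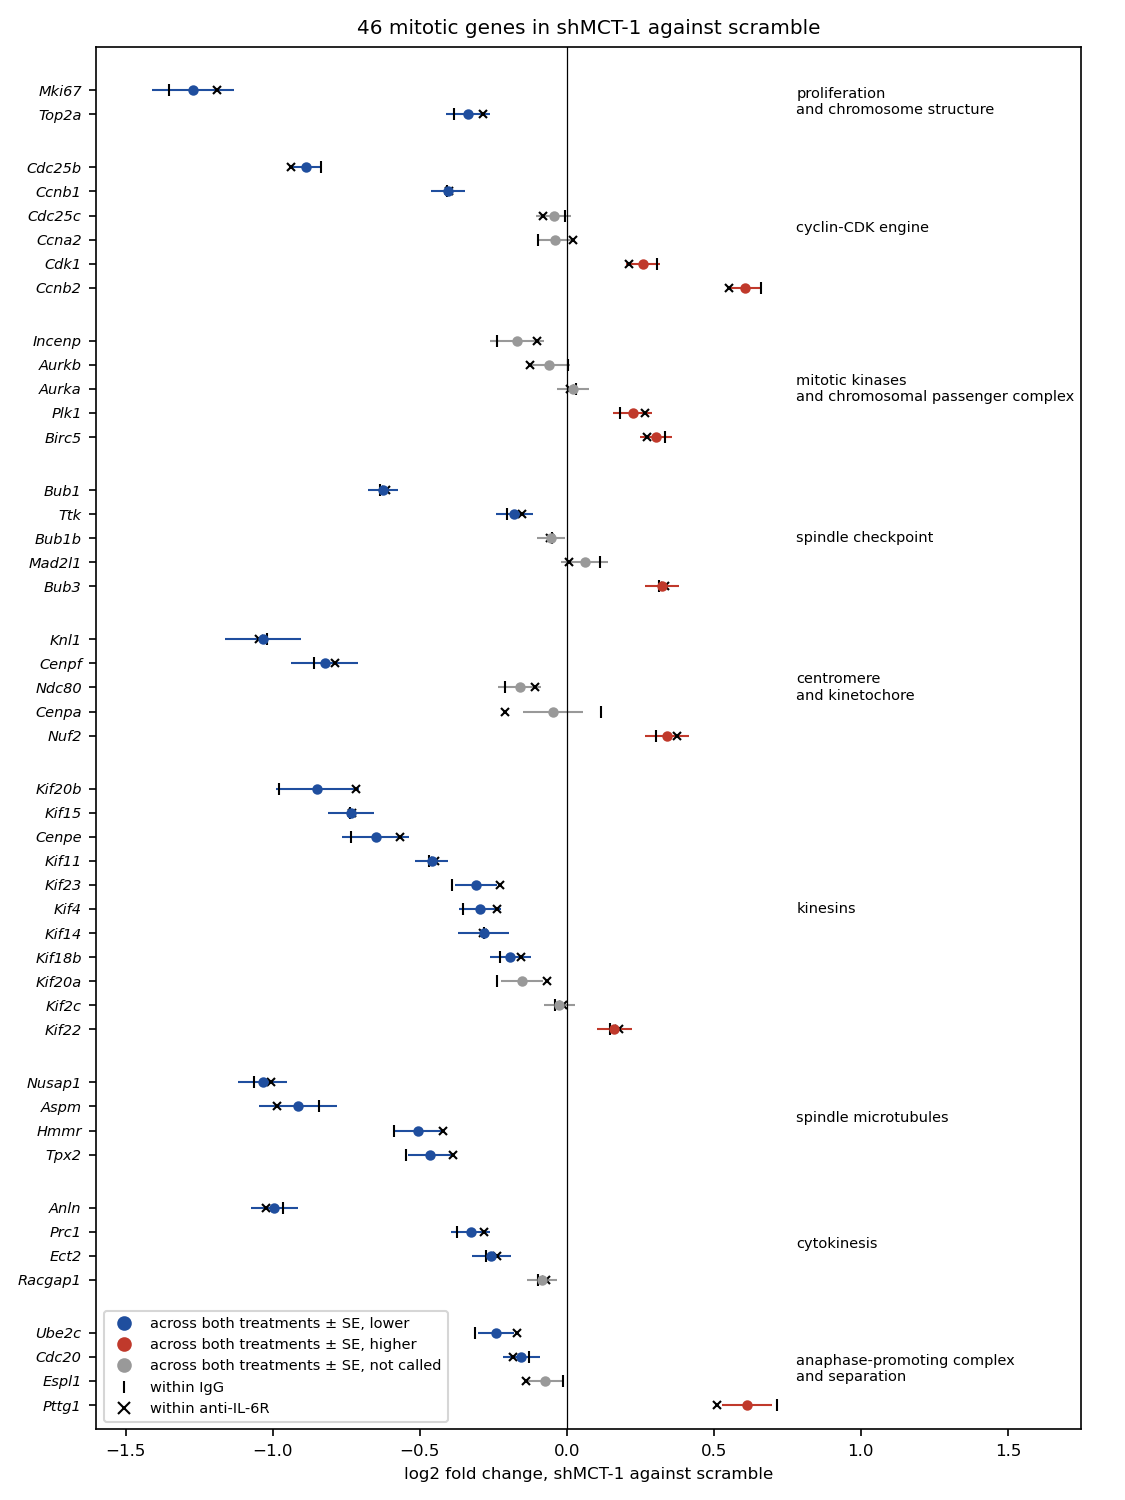
Change of each of the 46 genes in shMCT-1 relative to scramble on the log2 scale, by role. Circles with bars are the change across both treatments with its standard error, coloured by call, and ticks and crosses are the changes within IgG and within anti-IL-6R, which run from -1.35 (Mki67, IgG) to 0.72 (Pttg1, IgG).

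The proliferation antigen Ki-67 showed the largest change of the module. Mki67, whose protein coats mitotic chromosomes, measured 887 and 1107 CPM in scramble + IgG, 938 and 988 in scramble + anti-IL-6R, 419.6 and 339.6 in shMCT-1 + IgG, and 309 and 504 in shMCT-1 + anti-IL-6R. Every shMCT-1 library was far below every scramble library, although the 2 libraries of shMCT-1 + anti-IL-6R had the largest ratio to each other of the 4 groups (log2 fold change -1.27 ± 0.14, adjusted p = 1.57e-05, 2.41-fold lower). Top2a, the topoisomerase that untangles sister chromatids, measured 806 and 899 CPM in scramble + IgG, 806 and 824 in scramble + anti-IL-6R, 661 and 607 in shMCT-1 + IgG, and 580.5 and 706 in shMCT-1 + anti-IL-6R. Its groups did not overlap either, but the fall was smaller (log2 fold change -0.34 ± 0.0744, adjusted p = 0.00203). Under a correction for transcript length and GC content the fall of Mki67 was -0.66 (adjusted p = 9.93e-05) and Top2a was no longer called (-0.05, adjusted p = 0.406).

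**Figure D3:**
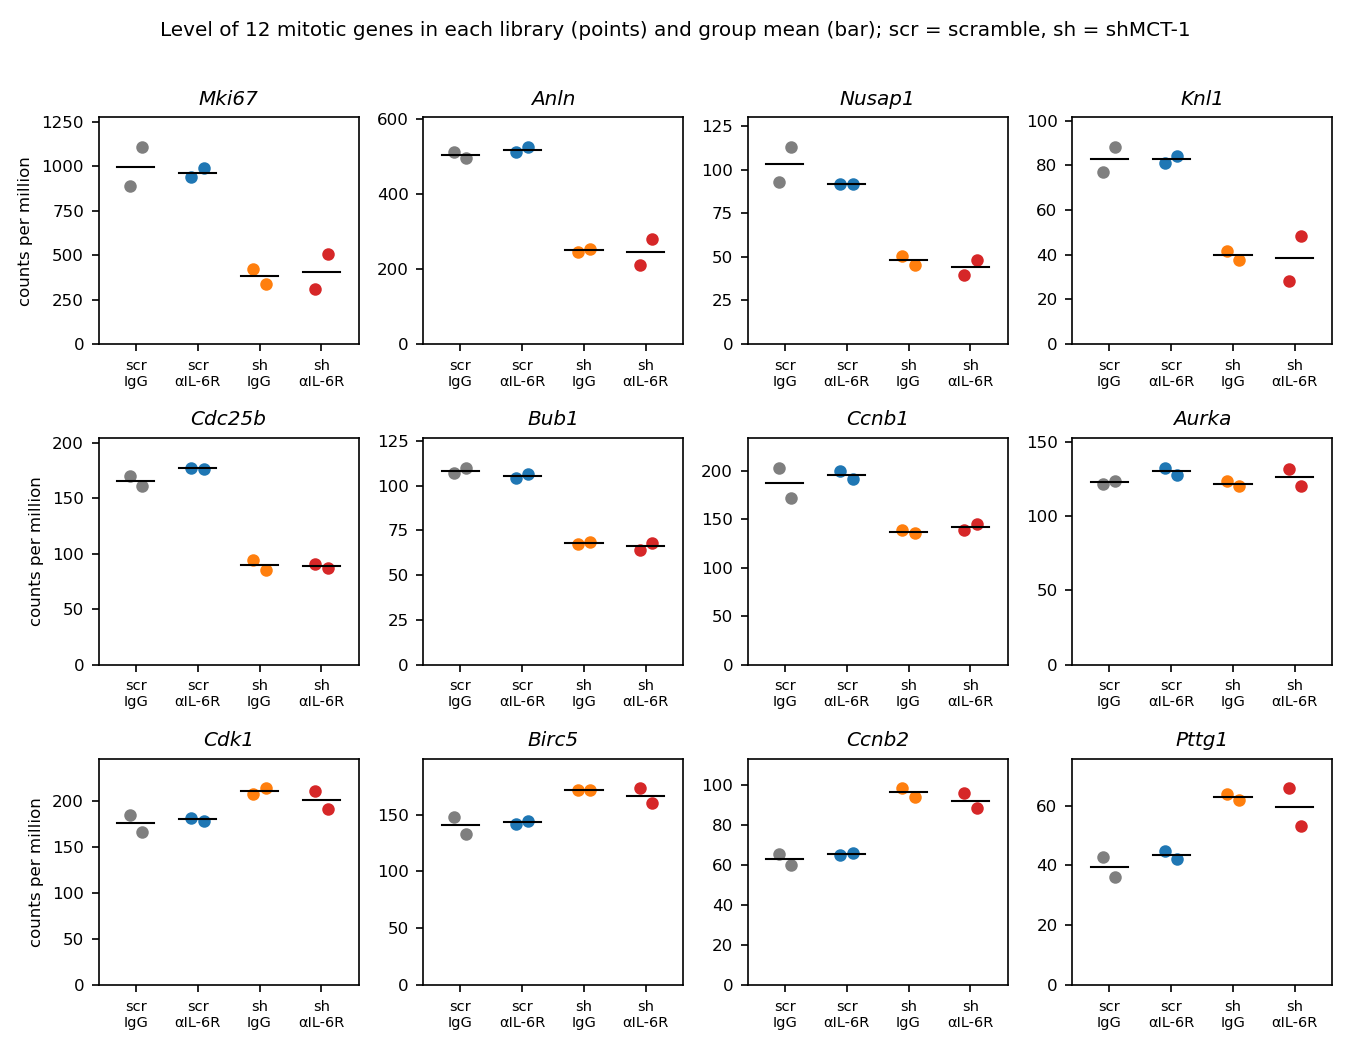
Level in CPM of 12 mitotic genes in each of the 8 libraries (points) with the group means (bars), axes starting at 0. Mki67, Anln, Nusap1, Knl1, Cdc25b, Bub1 and Ccnb1 are lower in all 4 shMCT-1 libraries, Aurka overlaps, and Cdk1, Birc5, Ccnb2 and Pttg1 are higher in all 4.

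In the cyclin-CDK engine 2 of 6 members were lower and 2 higher. Of all genes tested 34% were lower and 35% higher, so these counts are near that share. Cdc25b, a phosphatase that activates Cdk1, measured 169.5 and 161 CPM in scramble + IgG, 177 and 176 in scramble + anti-IL-6R, 94.1 and 85.4 in shMCT-1 + IgG, and 90.8 and 86.6 in shMCT-1 + anti-IL-6R. The groups were far apart and the replicates close (log2 fold change -0.89 ± 0.0563, adjusted p = 3.44e-07, 1.85-fold lower). It lies on chromosome 2, whose other genes were also lower, and after each library was scaled by chromosome its fall was -0.54 (adjusted p = 1.36e-05). Its relative Cdc25c measured 27.9 and 26.0 CPM in scramble + IgG, 28.4 and 27.0 in scramble + anti-IL-6R, 25.7 and 26.3 in shMCT-1 + IgG, and 25.0 and 25.3 in shMCT-1 + anti-IL-6R, with overlap between the lines (log2 fold change -0.05 ± 0.0585, adjusted p = 0.509). Cdk1 itself was slightly higher in shMCT-1, with no overlap. It measured 184 and 166 CPM in scramble + IgG, 182 and 178 in scramble + anti-IL-6R, 208 and 214 in shMCT-1 + IgG, and 210.0 and 190.5 in shMCT-1 + anti-IL-6R (log2 fold change 0.26 ± 0.0583, adjusted p = 0.00224). Within anti-IL-6R alone Cdk1 was not called (0.21 ± 0.087, adjusted p = 0.0637).

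The 2 B-type cyclins, which bind Cdk1 at mitotic entry, went in opposite directions. Ccnb1 measured 204 and 172 CPM in scramble + IgG, 199.7 and 191 in scramble + anti-IL-6R, 139 and 136 in shMCT-1 + IgG, and 139 and 146 in shMCT-1 + anti-IL-6R (log2 fold change -0.40 ± 0.0591, adjusted p = 0.000119). Ccnb2 lay at 60.0 to 66.1 CPM in scramble and 88.7 to 98.5 CPM in shMCT-1 (log2 fold change 0.61 ± 0.058, adjusted p = 5.76e-06, 1.52-fold higher). Neither gene's groups overlapped. Ccnb1 lies on chromosome 13, where the other genes tested had a median change of -0.42, and after each library was scaled by chromosome Ccnb1 was at -0.01 (adjusted p = 0.875). The estimated counts of Ccnb1 were not whole in any library, which means that reads were shared with other loci in the counting. Ccna2, the cyclin of S phase and G2, measured 407 and 438 CPM in scramble + IgG, 405 and 397 in scramble + anti-IL-6R, 389 and 378 in shMCT-1 + IgG, and 397 and 386 in shMCT-1 + anti-IL-6R. All of its shMCT-1 values were below the scramble values in plain CPM but by little, and it was not called (log2 fold change -0.04 ± 0.057, adjusted p = 0.566).

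Among the 5 mitotic kinases and their partners none was called lower and 2 were called higher, against 34% and 35% of all genes tested. Aurka, the kinase of centrosomes and spindle poles, measured 122 and 124 CPM in scramble + IgG, 133 and 128 in scramble + anti-IL-6R, 123 and 120.3 in shMCT-1 + IgG, and 132 and 121 in shMCT-1 + anti-IL-6R, and its groups overlapped (log2 fold change 0.02 ± 0.054, adjusted p = 0.733). Both corrections gave it a call, in opposite directions: it was lower at -0.19 (adjusted p = 0.0025) under that for length and GC content and higher at 0.37 (adjusted p = 0.000153) after scaling by chromosome. Plk1, the Polo-like kinase that acts from centrosomes to the midbody, measured 174 and 180.5 CPM in scramble + IgG, 183 and 174 in scramble + anti-IL-6R, 212 and 178 in shMCT-1 + IgG, and 209 and 204 in shMCT-1 + anti-IL-6R. Its groups overlapped in 1 shMCT-1 + IgG library and the rise was small (log2 fold change 0.22 ± 0.0655, adjusted p = 0.0105). It was at -0.02 (adjusted p = 0.824) under the correction for length and GC content.

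Aurkb, its scaffold Incenp and Birc5 (survivin) form the chromosomal passenger complex, which corrects faulty attachments of kinetochores. Aurkb measured 119 and 94.0 CPM in scramble + IgG, 118 and 119 in scramble + anti-IL-6R, 107 and 99.8 in shMCT-1 + IgG, and 104 and 105 in shMCT-1 + anti-IL-6R, and its groups overlapped (log2 fold change -0.06 ± 0.0713, adjusted p = 0.476). Incenp lay at 233 to 315 CPM in scramble and 211 to 235 CPM in shMCT-1, also with overlap (log2 fold change -0.17 ± 0.0915, adjusted p = 0.124). Without a correction Birc5 was the only one of the 3 called. It measured 148 and 133 CPM in scramble + IgG, 142 and 145 in scramble + anti-IL-6R, 172 and 172 in shMCT-1 + IgG, and 173 and 160.0 in shMCT-1 + anti-IL-6R, higher in every shMCT-1 library (log2 fold change 0.30 ± 0.0552, adjusted p = 0.000556). After scaling by chromosome Birc5 was not called within IgG (0.16, adjusted p = 0.112) or within anti-IL-6R (0.13, adjusted p = 0.213). Across both treatments Aurkb was called lower under both corrections, and Incenp under that for length and GC content.

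Of the 5 spindle checkpoint genes 2 fell, 1 rose and 2 were not called, while 34% of all genes tested fell and 35% rose. Bub1, a kinase that recruits other checkpoint proteins to the kinetochore, measured 107 and 110.2 CPM in scramble + IgG, 104 and 106 in scramble + anti-IL-6R, 67.4 and 68.3 in shMCT-1 + IgG, and 64.0 and 68.2 in shMCT-1 + anti-IL-6R. These replicates were among the tightest of the module and the groups were far apart (log2 fold change -0.63 ± 0.0521, adjusted p = 2.21e-06, 1.54-fold lower). Bub3, the adaptor that carries Bub1 and BubR1, measured 130.5 and 130.4 CPM in scramble + IgG, 130.4 and 132 in scramble + anti-IL-6R, 160.5 and 154 in shMCT-1 + IgG, and 169.6 and 149 in shMCT-1 + anti-IL-6R, and all shMCT-1 libraries were higher (log2 fold change 0.32 ± 0.0576, adjusted p = 0.000472). Bub1b, which encodes BubR1 of the complex that inhibits Cdc20, measured 146 and 149 CPM in scramble + IgG, 147 and 149 in scramble + anti-IL-6R, 137 and 140.0 in shMCT-1 + IgG, and 135 and 138 in shMCT-1 + anti-IL-6R. In plain CPM its shMCT-1 values were all slightly lower, but it was not called (log2 fold change -0.05 ± 0.0487, adjusted p = 0.345).

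MAD2 and MPS1 complete the checkpoint list. Mad2l1, the gene for MAD2, measured 83.4 and 96 CPM in scramble + IgG, 85.6 and 85.7 in scramble + anti-IL-6R, 84.2 and 104 in shMCT-1 + IgG, and 85.0 and 80.4 in shMCT-1 + anti-IL-6R, with overlap (log2 fold change 0.06 ± 0.0802, adjusted p = 0.519). Under the correction for length and GC content, Mad2l1, with a transcript of 7557 bases, was called higher at 0.62 (adjusted p = 0.000114). Ttk, the kinase MPS1 at the top of the checkpoint, measured 48.9 and 44.5 CPM in scramble + IgG, 43.8 and 47.8 in scramble + anti-IL-6R, 39.3 and 39.4 in shMCT-1 + IgG, and 36.9 and 42.2 in shMCT-1 + anti-IL-6R. Every shMCT-1 value was lower (log2 fold change -0.18 ± 0.0626, adjusted p = 0.0254). Bub1 and Bub1b both lie on chromosome 2, where 993 other genes had a median change of -0.37. After scaling by chromosome Bub1 was at -0.27 (adjusted p = 0.000749) and Bub1b was called higher at 0.30 (adjusted p = 0.00029).

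At the centromere and kinetochore 2 of 5 genes fell, Knl1 and Cenpf, and Nuf2 rose (34% and 35% of all genes tested). Knl1, the scaffold on which BUB proteins dock, measured 77.2 and 88.2 CPM in scramble + IgG, 81.2 and 84.4 in scramble + anti-IL-6R, 41.5 and 37.8 in shMCT-1 + IgG, and 28.4 and 48.5 in shMCT-1 + anti-IL-6R. Its groups were well apart, with a wide spread between the 2 libraries of shMCT-1 + anti-IL-6R (log2 fold change -1.03 ± 0.13, adjusted p = 4.02e-05, 2.05-fold lower). The fall of Knl1 was -0.43 (adjusted p = 0.000898) under the correction for length and GC content and -0.68 (adjusted p = 0.000682) after scaling by chromosome. Cenpf, a large kinetochore protein that gathers in G2, lay at 240.3 to 311 CPM in scramble and 119 to 169.9 CPM in shMCT-1 (log2 fold change -0.82 ± 0.114, adjusted p = 7.93e-05). Its transcript of 11130 bases is the longest of the module, and the fall was not called under the correction for length and GC content (-0.10, adjusted p = 0.233). Cenpa, the histone H3 variant that marks centromeres, measured 181 and 134 CPM in scramble + IgG, 172 and 181 in scramble + anti-IL-6R, 155 and 175 in shMCT-1 + IgG, and 157 and 136 in shMCT-1 + anti-IL-6R, with overlap and wide replicates (log2 fold change -0.05 ± 0.102, adjusted p = 0.698).

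Ndc80 and Nuf2 encode the 2 proteins that together grip the microtubule end. Ndc80 measured 45.3 and 50.7 CPM in scramble + IgG, 40.3 and 43.4 in scramble + anti-IL-6R, 39.2 and 41.3 in shMCT-1 + IgG, and 34.0 and 40.6 in shMCT-1 + anti-IL-6R, with overlap (log2 fold change -0.16 ± 0.0737, adjusted p = 0.0732). Nuf2 lay at 47.5 to 61.1 CPM in scramble and 60.8 to 67.5 CPM in shMCT-1 (log2 fold change 0.34 ± 0.0744, adjusted p = 0.00186). The scramble library at 61.1 CPM was above the lowest shMCT-1 library in plain CPM, although Nuf2 was called higher in shMCT-1 in the comparison across both treatments. Their transcripts are of nearly equal length, 3847 and 3888 bases. Under the correction for length and GC content Nuf2 stayed called higher within IgG (0.50) and within anti-IL-6R (0.56). Nuf2 lies on chromosome 1, where the other genes tested had a median change of 0.21. After scaling by chromosome it was not called across both treatments, within IgG (0.07, adjusted p = 0.606) or within anti-IL-6R (0.17, adjusted p = 0.237).

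Of the 11 kinesins 8 fell, 1 rose and 2 were not called, while 34% of all genes tested fell and 35% rose. The largest fall was that of Kif20b, which acts in cytokinesis, at 113 and 154 CPM in scramble + IgG, 109 and 118 in scramble + anti-IL-6R, 68.4 and 63.5 in shMCT-1 + IgG, and 51.1 and 81.0 in shMCT-1 + anti-IL-6R. The groups did not overlap, but shMCT-1 + anti-IL-6R, like scramble + IgG, had 1 library well above the other (log2 fold change -0.85 ± 0.141, adjusted p = 0.000295). Under the correction for length and GC content it was at -0.44 (adjusted p = 0.00271) and was not called within anti-IL-6R (-0.33, adjusted p = 0.0721). Kif11 (Eg5), which pushes the spindle poles apart, measured 158 and 169 CPM in scramble + IgG, 160.2 and 169 in scramble + anti-IL-6R, 118 and 111 in shMCT-1 + IgG, and 111 and 121 in shMCT-1 + anti-IL-6R, with close replicates (log2 fold change -0.46 ± 0.0562, adjusted p = 3.33e-05). Kif15, which can help Kif11 to hold a bipolar spindle, lay at 98.5 to 117 CPM in scramble and 53.5 to 65.0 CPM in shMCT-1 (log2 fold change -0.73 ± 0.0772, adjusted p = 1.12e-05).

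Cenpe, the motor that brings chromosomes to the spindle equator, measured 229.6 and 299.6 CPM in scramble + IgG, 235 and 248 in scramble + anti-IL-6R, 161 and 148 in shMCT-1 + IgG, and 130.1 and 184 in shMCT-1 + anti-IL-6R. Its groups did not overlap (log2 fold change -0.65 ± 0.114, adjusted p = 0.000424). The chromokinesin Kif4 lay at 80.4 to 91.0 CPM in scramble and 61.5 to 71.8 CPM in shMCT-1 (log2 fold change -0.30 ± 0.072, adjusted p = 0.00367), and Kif23, the motor of centralspindlin, at 154 to 178 CPM in scramble and 116 to 134 CPM in shMCT-1 (log2 fold change -0.31 ± 0.0712, adjusted p = 0.00261). Kif14, which acts in cytokinesis, lay at 50.2 to 53.3 CPM in scramble and 35.2 to 47.6 CPM in shMCT-1 (log2 fold change -0.28 ± 0.0857, adjusted p = 0.0125). Kif14 was the 1 member whose call turned round: with a transcript of 8943 bases it was called higher, at 0.27 (adjusted p = 0.000721), under the correction for length and GC content, under which Cenpe and Kif4 were not called.

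The remaining kinesins had the smallest differences of the 11. Kif2c (MCAK), which takes microtubule ends apart, measured 94.3 and 88.6 CPM in scramble + IgG, 92.5 and 89.5 in scramble + anti-IL-6R, 89.2 and 83.6 in shMCT-1 + IgG, and 87.3 and 86.1 in shMCT-1 + anti-IL-6R, with overlap (log2 fold change -0.03 ± 0.0524, adjusted p = 0.674). Kif18b, which works with it at microtubule plus ends, lay at 89.9 to 104 CPM in scramble and 76.9 to 88.0 CPM in shMCT-1 (log2 fold change -0.19 ± 0.0702, adjusted p = 0.0307). Kif20a, which carries Aurora B to the central spindle, lay at 196 to 229 CPM in scramble and 165 to 188 CPM in shMCT-1 and was not called (log2 fold change -0.15 ± 0.0727, adjusted p = 0.0837). Kif22, a chromokinesin, was the 1 kinesin that rose, and lay at 89.3 to 91.6 CPM in scramble and 92.1 to 105 CPM in shMCT-1 (log2 fold change 0.16 ± 0.0584, adjusted p = 0.0287), and it was at 0.05 (adjusted p = 0.466) after scaling by chromosome.

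All 4 spindle microtubule genes fell under both treatments, while 26.2% of all genes were lower within IgG and 27.3% within anti-IL-6R. Nusap1, which bundles microtubules near chromosomes, measured 93.3 and 113 CPM in scramble + IgG, 91.8 and 92.0 in scramble + anti-IL-6R, 50.6 and 45.5 in shMCT-1 + IgG, and 39.8 and 48.1 in shMCT-1 + anti-IL-6R. The groups were far apart (log2 fold change -1.03 ± 0.0837, adjusted p = 1.83e-06, 2.05-fold lower). Aspm, which focuses the spindle poles and is mutated in inherited microcephaly, measured 109 and 122 CPM in scramble + IgG, 117 and 125 in scramble + anti-IL-6R, 68.8 and 56.1 in shMCT-1 + IgG, and 44.2 and 73.2 in shMCT-1 + anti-IL-6R, again with a wide spread in shMCT-1 + anti-IL-6R (log2 fold change -0.91 ± 0.132, adjusted p = 0.000108). Under the correction for length and GC content Aspm was at -0.28 (adjusted p = 0.0101) and was not called within IgG (-0.21, adjusted p = 0.148), and Hmmr was not called within anti-IL-6R (-0.25, adjusted p = 0.0567). Tpx2, which activates Aurora A on the spindle, measured 256 and 307 CPM in scramble + IgG, 262 and 264 in scramble + anti-IL-6R, 198 and 177 in shMCT-1 + IgG, and 191 and 196 in shMCT-1 + anti-IL-6R (log2 fold change -0.47 ± 0.0744, adjusted p = 0.000221). Hmmr, a factor of spindle assembly, lay at 123 to 144 CPM in scramble and 77.5 to 99.8 CPM in shMCT-1 (log2 fold change -0.51 ± 0.0869, adjusted p = 0.000378). Nusap1 and Tpx2 lie on chromosome 2, and after scaling by chromosome Nusap1 was at -0.68 (adjusted p = 3.52e-05) and Tpx2 was not called (-0.12, adjusted p = 0.2).

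In cytokinesis 3 of 4 genes fell, against 34% of all genes tested. Anln (anillin), which ties actin and septins in the cleavage furrow, measured 511 and 497 CPM in scramble + IgG, 513 and 526 in scramble + anti-IL-6R, 247 and 254 in shMCT-1 + IgG, and 209.8 and 282 in shMCT-1 + anti-IL-6R. The lowest scramble library was far above the highest shMCT-1 library (log2 fold change -1.0 ± 0.0803, adjusted p = 1.81e-06, 1.99-fold lower). Prc1, which bundles the microtubules of the central spindle, measured 192 and 219 CPM in scramble + IgG, 195 and 195 in scramble + anti-IL-6R, 162 and 147 in shMCT-1 + IgG, and 147 and 162 in shMCT-1 + anti-IL-6R (log2 fold change -0.33 ± 0.0661, adjusted p = 0.00113). Ect2, the exchange factor that activates RhoA at the furrow, lay at 164 to 177 CPM in scramble and 121 to 146 CPM in shMCT-1 (log2 fold change -0.26 ± 0.0664, adjusted p = 0.00521). Racgap1, the partner of Kif23 in centralspindlin, measured 277 and 285 CPM in scramble + IgG, 279.6 and 278 in scramble + anti-IL-6R, 257 and 253 in shMCT-1 + IgG, and 259 and 252 in shMCT-1 + anti-IL-6R. Its values in shMCT-1 were all lower in plain CPM, but by an amount that did not pass the test (log2 fold change -0.08 ± 0.0501, adjusted p = 0.157).

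Of the 4 genes of chromatid separation 2 fell and 1 rose, against 34% and 35% of all genes tested. Pttg1 (securin), which holds separase inactive, measured 42.9 and 36.0 CPM in scramble + IgG, 44.8 and 42.0 in scramble + anti-IL-6R, 64.0 and 61.9 in shMCT-1 + IgG, and 65.9 and 53.2 in shMCT-1 + anti-IL-6R, higher in every shMCT-1 library (log2 fold change 0.61 ± 0.0854, adjusted p = 8.49e-05, 1.53-fold higher). Espl1 (separase) measured 169.6 and 139.8 CPM in scramble + IgG, 171 and 173 in scramble + anti-IL-6R, 149.7 and 148 in shMCT-1 + IgG, and 145 and 155 in shMCT-1 + anti-IL-6R, with overlap (log2 fold change -0.08 ± 0.0647, adjusted p = 0.318). Ube2c, the ubiquitin-conjugating enzyme of the anaphase-promoting complex, measured 214 and 220.1 CPM in scramble + IgG, 217 and 207 in scramble + anti-IL-6R, 174 and 166 in shMCT-1 + IgG, and 191 and 172 in shMCT-1 + anti-IL-6R and fell (log2 fold change -0.24 ± 0.0606, adjusted p = 0.0045). It lies on chromosome 2 and was at 0.11 (adjusted p = 0.148) after scaling by chromosome. Cdc20, the activator that the checkpoint holds back, measured 269.7 and 235 CPM in scramble + IgG, 274 and 266 in scramble + anti-IL-6R, 230.1 and 218 in shMCT-1 + IgG, and 242 and 216 in shMCT-1 + anti-IL-6R, with overlap and a small fall (log2 fold change -0.16 ± 0.0624, adjusted p = 0.045).

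Because partners in 1 complex went different ways, their ratios shifted. A ratio within a library does not depend on how whole libraries are scaled. It does depend on corrections that differ between genes, and the ratios were not corrected for chromosome, length or GC content. Scaling by chromosome moved Ccnb1 within IgG from -0.41 to -0.02, and the transcripts of Pttg1 and Espl1 have 1674 and 6658 bases. The ratio of Ccnb2 to Ccnb1 (CPM over CPM) was 0.322 to 0.35 in the 4 scramble libraries and 0.609 to 0.709 in the 4 shMCT-1 libraries. Per kilobase of the transcript with the longest coding sequence, the length used for the members here, Ccnb1 was at 77 CPM and Ccnb2 at 41.9 CPM in scramble, and at 56.2 and 61.6 CPM in shMCT-1. Per kilobase of all annotated exons of the gene together, Ccnb1 was at 45.4 CPM in scramble and 33.2 CPM in shMCT-1, and Ccnb2 at the same levels as before, so that Ccnb2 was below Ccnb1 in scramble and above it in shMCT-1 with either length. The ratio of Nuf2 to Ndc80 was 1.09 to 1.21 in scramble and 1.53 to 1.79 in shMCT-1, and that of Pttg1 to Espl1 was 0.242 to 0.263 and 0.342 to 0.454. The ratio of Bub1 to Bub3 was 0.799 to 0.845 in scramble and 0.377 to 0.459 in shMCT-1. Tpx2 to Aurka was at 1.98 to 2.48 in scramble and 1.45 to 1.63 in shMCT-1. Of 11 pairs of partners examined, 4 ratios were higher in all shMCT-1 libraries, 4 were lower and 3 overlapped, among them Kif4 to Prc1, at 0.416 to 0.422 in scramble and 0.419 to 0.444 in shMCT-1. Among single genes tested, 34.2% lay below and 29.9% above in all shMCT-1 libraries in plain CPM. The share among other pairs of genes was not counted. The pairs were chosen after the values were seen, so the ratios are given as a description.

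Levels per kilobase spanned a wide range in scramble, and their order depended on the length used. Per kilobase of transcript Top2a had the highest mean, at 159.7 CPM, ahead of Cdc20 at 146 and Ccna2 at 139, while per kilobase of all exons Cdc20 was first at 139.8 CPM, ahead of Ccna2 at 101, Mki67 at 97.4 and Top2a at 92.5. Kif14 had the lowest level by both, at 5.82 and 5.03 CPM. Mki67 was at 97.4 CPM per kilobase in scramble and 39.1 in shMCT-1 by either length.

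Members with long transcripts fell more. The 25 members that fell had a median transcript length of 4365 bases, the 8 that rose 3460 and the 13 not called 3668. Of the 8 members of 6000 bases or more, 6 fell and none rose, and their median change was -0.74. The same held for other genes: of the 1647 other genes tested of that length, 67% fell and 14.3% rose, with a median of -0.43. Of the 5 members under 2000 bases, 2 rose and 1 fell, against 49.1% and 18% of the other genes. In between, 8 of 11 members from 4000 to under 6000 bases fell (44.3% of the other genes), and 10 of 22 from 2000 to under 4000 bases (27.5%). Across the 46 members Pearson's correlation of the change with log2 length was -0.57 and Spearman's -0.50, and across the other genes they were -0.14 and -0.31. These are correlations across genes, which share their libraries and are not independent.

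Differences between replicates followed length as well. Within scramble + IgG, scramble + anti-IL-6R and shMCT-1 + anti-IL-6R the difference between the 2 replicates correlated with log2 length over the members at 0.52, 0.60 and 0.72, and within shMCT-1 + IgG at -0.14. This is seen in the values of Mki67, Knl1 and Aspm in shMCT-1 + anti-IL-6R given above. When each library was corrected for transcript length and GC content, a correction chosen after the data were seen, 22 members were lower and 9 higher across both treatments, and the median moved from -0.18 to -0.12. Of all genes tested, 31.9% were lower and 34.4% higher under this correction. Of the 33 calls 25 were kept, that of Kif14 turned to higher, the calls of Cenpe, Cenpf, Ect2, Kif4, Plk1, Top2a and Ttk were lost, and Aurka, Aurkb, Incenp and Kif2c were gained as lower and Mad2l1 as higher. Of the 25 kept calls, 9 shrank by more than 1.5 times: Mki67 as given above, Aspm from -0.91 to -0.28, Knl1 from -1.03 to -0.43, Kif20b from -0.85 to -0.44, Kif15 from -0.73 to -0.47, Hmmr from -0.51 to -0.32, Kif11 from -0.46 to -0.19, Prc1 from -0.33 to -0.21 and Ccnb2 from 0.61 to 0.39. Another 4 grew by more than 1.5 times, namely Cdc20 (-0.44), Ube2c (-0.48), Kif18b (-0.31) and Nuf2 (0.53). The other 12, among them Cdc25b (-1.01), Nusap1 (-0.88), Anln (-0.82) and Bub1 (-0.47), moved by less. RNA integrity values are not given in the sources used here, and the part of length in the result was not tested further.

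**Figure D4:**
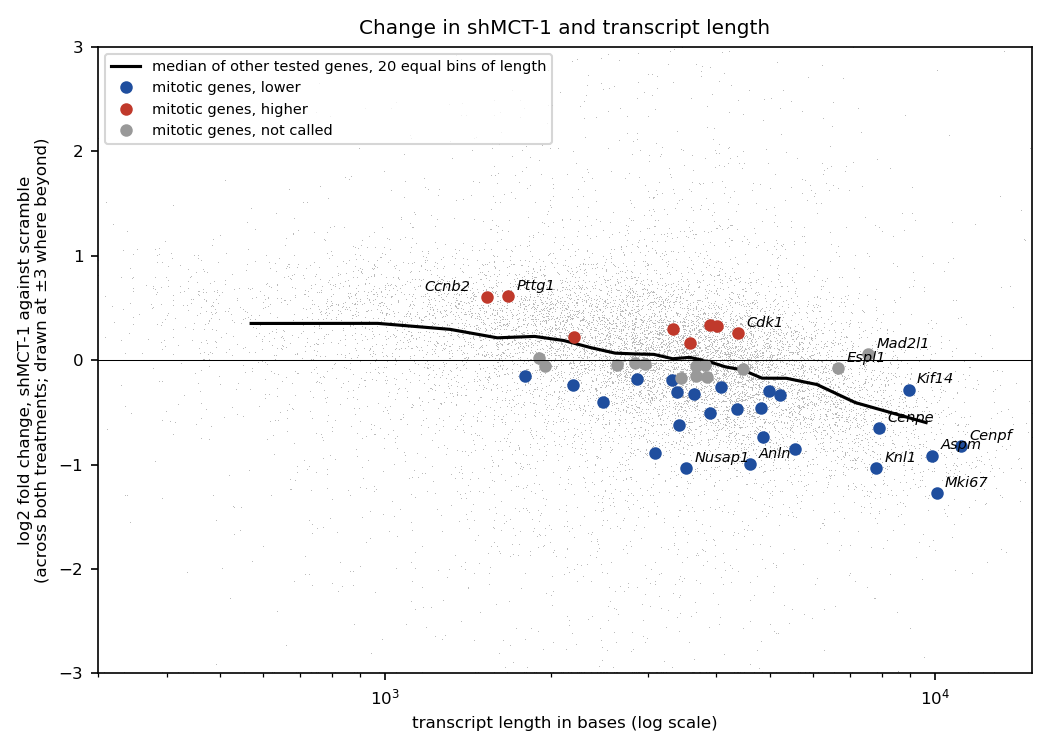
Log2 fold change in shMCT-1 against scramble across both treatments against transcript length in bases on a log axis. Circles are the 46 mitotic genes by call, small points are the other genes tested and the line is their median in 20 bins of equal gene number, which falls from above 0 for short transcripts to below 0 for long ones.

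Chromosomes also differed between the 2 lines. The other genes of chromosome 2 had a median change of -0.37 and those of chromosome 13 of -0.42, whereas those of chromosome 1 were at 0.21. Chromosome 2 holds 8 members, Aurka, Bub1, Bub1b, Cdc25b, Knl1, Nusap1, Tpx2 and Ube2c, with a median of -0.55. The 4 members on chromosome 1, Aspm, Cenpf, Kif14 and Nuf2, had a median of -0.55 as well, and lie among genes whose median was higher in shMCT-1. Aspm, Cenpf and Kif14 have long transcripts, of 9867, 11130 and 8943 bases. Under the correction for length and GC content the fall of Aspm shrank, Cenpf was not called and Kif14 turned to higher. After scaling by chromosome 25 members were lower and 7 higher, against 33.6% and 33.1% of all genes tested. Of the 33 calls 26 were kept, Ccnb1, Cdc20, Kif22, Nuf2, Plk1, Tpx2 and Ube2c were lost, and Aurka and Bub1b were gained as higher and Aurkb, Ccna2, Espl1 and Racgap1 as lower. Of the 26 kept calls, 7 shrank by more than 1.5 times, namely Bub1, Cdc25b, Knl1 and Nusap1, with the values given above, and the rises of Cdk1 (0.16), Birc5 (0.15) and Bub3 (0.21), while the falls of Kif14 (-0.50) and Kif18b (-0.35) grew by as much. Copy number was not measured, and the part of the chromosomes in the result was not tested further.

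The comparison of anti-IL-6R with IgG asks what blocking IL-6R does to the same genes, and no member was called. In scramble 0 of 46 members passed the test, with 0 at an unadjusted p under 0.05, and 0% of all genes were called (edgeR's quasi-likelihood test). DESeq2 and edgeR's exact test also called 0 members, and over all genes they called 0 and 10. The median change was -0.02, from -0.25 for Kif20b to 0.16 for Cenpa. In shMCT-1 0 members passed, again with 0 at an unadjusted p under 0.05 and 0% of all genes called. DESeq2 and the exact test called 0 members as well, but over all genes DESeq2 called 1 higher and 10 lower and the exact test 2 higher and 7 lower. The median was 0.01, from -0.18 for Mad2l1 to 0.10 for Mki67. The standard errors of the members in these 2 comparisons lay between 0.076 and 0.203 on the log2 scale, and changes of that size were not detectable with 2 libraries in a group.

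Mki67 moved by -0.06 ± 0.202 in scramble and 0.10 ± 0.203 in shMCT-1 with the antibody, and Bub1 by -0.05 and -0.03. With both backgrounds in 1 model, which sets 4 libraries against 4, 0 members and 0% of all genes were called. Of the members 0 had an unadjusted p under 0.05, and their changes ran from -0.16 for Ndc80 to 0.08 for Espl1. The test of whether the antibody acted differently in the 2 backgrounds called 0 members and 0% of all genes, with 0 members at an unadjusted p under 0.05. DESeq2 called 0 members as well, and over all genes 2 higher and 4 lower. The members' values in edgeR's test of this difference ran from -0.32 for Cenpa to 0.26 for Kif20b, with a median of 0.03 that was 0.11 once replicate 1 of shMCT-1 + anti-IL-6R was left out. None of the differences between the calls within IgG and within anti-IL-6R given above is thereby shown to be a difference between the treatments.

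**Figure D5:**
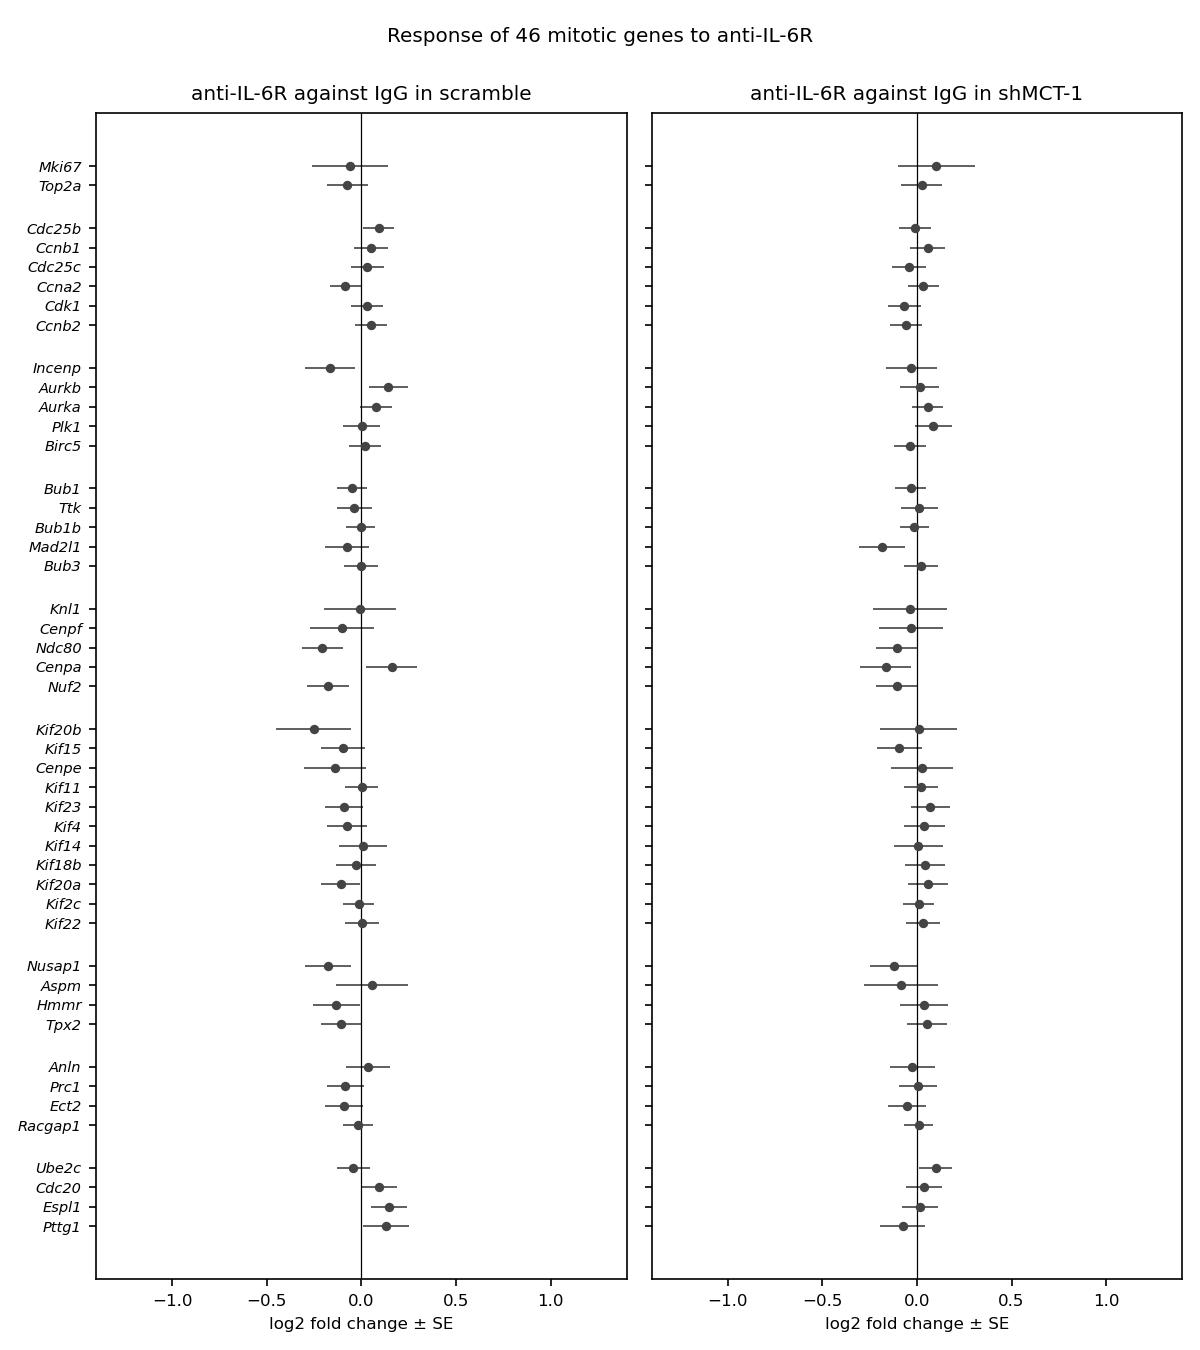
Log2 fold change of the 46 genes with anti-IL-6R against IgG in scramble (left) and in shMCT-1 (right), with standard errors. All points lie between -0.25 and 0.16, and none was called.

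The wider mitotic and cell cycle machinery was read from 8 further lists in the same comparison of the lines across both treatments. Cohesin and condensin, the rings that hold and fold chromosomes, had 16 of 18 genes lower and 1 higher, with a median of -0.49, from Smc2 at -1.0 to Ncaph2 at 0.24. Other spindle, centrosome and kinesin genes had 26 of 44 lower and 8 higher (median -0.29, from Cep152 at -1.22 to Tacc1 at 1.28). Other subunits and regulators of the anaphase-promoting complex went the other way, with 10 of 17 higher and 3 lower (median 0.21, from Anapc1 at -0.76 to Cdc16 at 0.68). Other kinetochore and checkpoint genes were split evenly, with 12 of 35 higher and 12 lower (median -0.06, from Cenpu at -0.71 to Mad2l1bp at 0.58).

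Further mitotic kinases and phosphatase regulators had 6 of 14 lower and 3 higher, from the citron kinase gene Cit at -0.82 to Arpp19 at 0.81. The regulators of G2/M transcription, the DREAM, B-MYB and FOXM1 genes, had 5 of 12 lower and 2 higher, from Rbl1 at -0.91 to E2f5 at 0.57. Of the cyclins, CDKs and inhibitors of G1/S, 12 of 15 were tested, and 5 were lower and 6 higher, from Cdk6 at -1.19 to Cdk4 at 0.66. DNA replication genes had 9 of 30 lower and 7 higher, with a median of -0.01, and Pola2 had the largest rise at 0.51. Against 34% of all genes lower and 35% higher, cohesin and condensin had the highest share of lower genes among these 8 lists. The lists were read without a correction for transcript length, GC content or chromosome. None of the 8 lists had a gene called with anti-IL-6R in either background.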

How the data were processed

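Poly(A) RNA of 8 libraries of 4T1 cells was sequenced. Per the labels and the study's methods, the authors used cutadapt 1.18 for trimming, STAR 2.7.0d for alignment to mm10 and RSEM for counting, and deposited the expected counts per gene, which are not normalized. Use of molecular identifiers and strand in the counting are not given in the sources used here. Counts were rounded (29.6% of values above 0 were not whole) and a gene was kept if 2 or more libraries had over 1 CPM of it. edgeR 4.0.16 under R 4.3.3 fitted the 4 group means, and an additive model of line and treatment, to all 8 libraries with TMM. Tests were quasi-likelihood F tests with Benjamini-Hochberg adjustment over 12704 genes, called under 0.05. The standard error is the size of the log2 fold change divided by the root of F. The series text calls the replicates independent, and p-values measure the spread between these libraries. Depth of 19839255 to 33063535 counts puts 1 CPM at 19.8 to 33.1 counts.

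Transcript length and GC content were those of the transcript with the longest coding sequence in GENCODE M21 (GRCm38), in which 54495 of 54532 gene identifiers were found, and gene coordinates come from that release. Promoters are RefSeq's. All 46 members are named, those named in the rule and the largest and smallest change of each role with all libraries and the others by range. The lowest value of the DNA replication list is not reported here. The members, lists and tests were chosen with earlier results of these data known. The scripts were tested on simulated data. Alternatives were DESeq2 1.42.0, the exact test of edgeR, other size factors and filters, thinning, a replicate block, offsets for chromosome or for length and GC content, and each library left out. Replicate numbers were checked for pairing: deviations of libraries with the same number correlated at -0.08 to 0.11 over all genes and at -0.42 to 0.60 over the members (above 0.1 for 3 of the 6 pairs of groups), so not every pair was above 0.1 and the numbers were taken as names only.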

Additional observations from a re-analysis of the deposited data

How the results depend on the processing

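The counts of members called kept within 1.5 times their value under DESeq2, edgeR's exact test, other size factors and filters, thinning, the replicate block and both offsets. Which members were called changed more under the offsets. Under the chromosome offset 20 of 27 calls within IgG were kept and 5 gained, and 18 of 23 within anti-IL-6R were kept and 8 gained. Under the length and GC offset 21 of 27 were kept and 5 gained within IgG, and 16 of 23 kept and 7 gained within anti-IL-6R. No member was called with anti-IL-6R or in the interaction under any alternative run. Calls over all genes were few there too, at most 0.16% higher and 0.323% lower. Across both treatments 28 of 33 calls held whichever library was left out. With single libraries left out, the members higher within IgG ranged from 3 to 6, those higher and lower within anti-IL-6R from 1 to 7 and 11 to 20, and the median log2 fold changes from -0.33 to -0.21 (IgG), -0.23 to -0.10 (anti-IL-6R), -0.24 to -0.17 (across both) and -0.021 to 0.11 (interaction). Under the length and GC offset, chosen after seeing the data, the medians were -0.10 within anti-IL-6R and -0.12 across both treatments. Under the same offset the sign turned for Plk1 (-0.017 across both, -0.073 within IgG), Aurka (-0.19), Ndc80 (0.0012), Espl1 (0.12) and Racgap1 (0.067), and the call of Kif14 turned as given in the report. Under the chromosome offset it turned for Bub1b (0.30), Kif2c (0.044) and Ube2c (0.11 across both, 0.026 within IgG and 0.20 within anti-IL-6R). With single libraries left out, the values that changed sign belonged to members not called, and ranged from -0.0033 to 0.052 (Aurka), -0.016 to 0.11 (Mad2l1), -0.16 to 0.029 (Cenpa) and -0.063 to 0.00023 (Ccna2). The cause was not tested. With the replicate block, 6 members were higher and 21 lower within IgG, 6 and 18 within anti-IL-6R and 8 and 26 across both treatments. Of all genes tested, 28.8% were then higher and 26.6% lower within IgG, 27.4% and 27.8% within anti-IL-6R, and 35.1% and 34.1% across both treatments. Pairs with the same number did not all correlate, so the block stands for no known pairing. Where a group was left with 1 library, it was assumed to vary like the others. Leaving out a library gives fewer samples, and intervals cover only the spread between libraries.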
